A study of Bos taurus with 6 samples.

Results

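The miR-500, miR-362, miR-502 and miR-660 cluster is a group of miRNA genes on the bovine X chromosome, and its levels were examined in the miRNAs of serum extracellular vesicles (EVs) from dairy cows fed on different diets. The cluster was named with 8 mature miRNAs. The deposited count table had a row for 6 of them, bta-miR-660, bta-miR-362-5p, bta-miR-362-3p, bta-miR-532, bta-miR-502a and bta-miR-500, among 706 listed miRNAs of which 359 carried known Bos taurus names. The other members, bta-miR-502b and bta-miR-188, had no row and were not analysed here. The members were chosen by name, starting from bta-miR-500, which was selected on its higher level after the tested diet in this same study. Differences between the diets are therefore given for the members as a description without p-values, and where members past a threshold are counted, the count stands beside the percentage of all miRNAs and nothing is read from it.

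All cows were lactating Holstein females in mid lactation. The 3 cows of the control group ate a total mixed ration (TMR), and in the ration of the 3 cows of the tested group whole cotton seed and soybean hull took the place of part of the alfalfa hay. Blood was taken on day 30, EVs were bound from serum on an affinity membrane, and the small RNAs of each cow were sequenced as 1 library. Serum carries EVs from many tissues, and more vesicles from a tissue cannot be told apart from more copies of a miRNA in each vesicle. Counts on known miRNAs ran from 1226928 to 2088249 per library. Levels are given as CPM, the counts of a miRNA divided by the counts on all known miRNAs of the library and scaled to 1000000.

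Clustered miRNA genes are often copied into a single long transcript, from which Drosha and then Dicer cut each hairpin. A hairpin gives a duplex of a 5p and a 3p strand, and usually one strand is kept by an Argonaute protein while the other is degraded. The kept strand finds its target mRNAs mainly through its seed, bases 2 to 8. In human and mouse the relatives of these miRNAs lie in an intron of CLCN5, a gene for a chloride and proton exchanger.

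In the RefSeq gene table of assembly ARS-UCD2.0 all 8 members matched a gene, and all 8 genes lay on chromosome X within the bounds of CLCN5, each less than 10 kb from the next. Their order along the chromosome was MIR532, MIR188, MIR502A-2, MIR502B, MIR362, MIR500, MIR660 and MIR502A-1. No other miRNA gene lay within 10 kb of them. The table gives no exons, and the authors matched their reads to another version of the assembly, so positions are not given. The mature bta-miR-502a is listed with 2 genes, MIR502A-1 and MIR502A-2, at different places in the cluster, and its count cannot be divided between them.

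The listed sequences of the 6 members are shown with the seed in capitals, because the seed is the part that mainly pairs with targets.
bta-miR-660: tACCCATTgcatatcggagctg
bta-miR-362-5p: aATCCTTGgaacctaggtgtgagt
bta-miR-532: cATGCCTTgagtgtaggaccgt
bta-miR-502a: aATGCACCtgggcaaggattca
bta-miR-500: tAATCCTTgctacctgggtgaga
bta-miR-362-3p: aACACACCtattcaaggattc

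The 6 sequences had 6 different seeds, and 0 other known miRNAs in the table had any of these seeds. Lengths ran from 21 nt for bta-miR-362-3p to 24 nt for bta-miR-362-5p.

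Some members nevertheless resembled each other. The run AATCCTTG stood at the start of bta-miR-362-5p and 1 base later in bta-miR-500, so their seeds, shifted by 1 base, overlapped in all but 1 letter each. Its reverse complement, CAAGGATT, stood near the end of bta-miR-502a and bta-miR-362-3p. Both runs are shown in capitals.
bta-miR-362-5p: AATCCTTGgaacctaggtgtgagt
bta-miR-500: tAATCCTTGctacctgggtgaga
bta-miR-502a: aatgcacctgggCAAGGATTca
bta-miR-362-3p: aacacacctattCAAGGATTc

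Of all 706 listed sequences, each run was found in 2 (0.283%), searched as letters in both orientations, and these were the 4 members shown. The sequences of bta-miR-500 and bta-miR-362-5p differed by 6 edits, as did those of bta-miR-502a and bta-miR-362-3p. No listed sequence, known or newly predicted, contained a member, lay inside a member or came within 2 edits of a member.

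The most abundant member was bta-miR-660. It had 1573, 2017 and 1505 CPM in control cows 1, 2 and 3 and 1598, 2135 and 1484 CPM in tested cows 1, 2 and 3. In each group cow 2 was highest, and the groups overlapped. It ranked between 38 and 42 among the known miRNAs of a library and made up 43.3% to 54.1% of the summed counts of the 6 members.

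The next member was bta-miR-362-5p, the 5p strand of the MIR362 hairpin, with 1134, 1022 and 940.0 CPM across control cows 1 to 3 and 1120, 970.0 and 800.7 CPM across tested cows 1 to 3. The lowest value belonged to tested cow 3, and the groups overlapped. It held 23.7% to 32.1% of the summed counts.

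At a lower level followed bta-miR-532 and bta-miR-502a. MIR188 lies between MIR532 and MIR502A-2, and MIR502A-1 lies at the other end of the cluster. The values of bta-miR-532 were 374.0, 322.6 and 413.5 CPM across control cows 1 to 3 and 489.0, 424.6 and 469.8 CPM across tested cows 1 to 3. Those of bta-miR-502a were 402.7, 335.5 and 366.3 CPM across control cows 1 to 3 and 410.0, 524.1 and 404.6 CPM across tested cows 1 to 3. On this scale all tested cows lay above all control cows for both, for bta-miR-502a by a margin of 402.7 against 404.6 CPM.

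The member for which the cluster was examined, bta-miR-500, was much rarer than these. Its counts were 25, 68 and 33 across control cows 1 to 3 and 86, 82 and 157 across tested cows 1 to 3, at ranks from 119 to 176 among the known miRNAs. It made up between 0.460% and 2.32% of the summed counts, although MIR500 lies between MIR362 and MIR660, the genes of the leading members. In single libraries bta-miR-660 had 19.7 to 96.7 times as many counts as bta-miR-500.

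**Figure D1:**
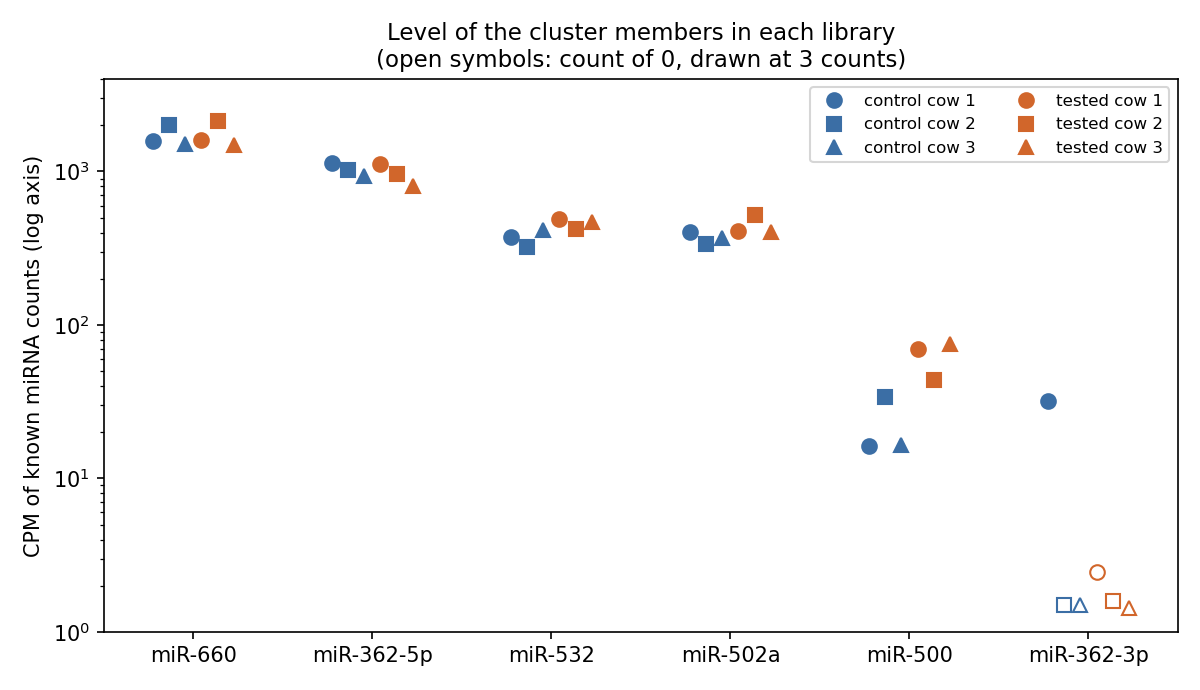
Level of each of the 6 members (horizontal axis) in each library, in CPM of known miRNA counts on a log axis. Each symbol is 1 cow, blue for control and orange for tested, and open symbols are counts of 0 drawn at the level of 3 counts. bta-miR-660 lies at 1484 to 2135 CPM, bta-miR-500 between 16.3 and 75.2 CPM, and bta-miR-362-3p has counts in control cow 1 only.

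The order of the members by level was compared within libraries. The members were chosen by name and not by how they rank, but the level of bta-miR-500 after the tested diet entered its selection. The order itself was taken from the mean levels in these same 6 libraries, so the p-values are not independent evidence of its direction. Any pair with the same order in 6 of 6 libraries gets the smallest possible p, whatever its fold or spread. Each neighbouring pair was compared by a two-sided exact sign-flip permutation test over the 6 libraries, whose smallest possible p is 0.0312, with Benjamini-Hochberg adjustment over the 5 pairs. One count of a mature miRNA is one read whatever its length, so no division by length was made, but ligation and PCR favour some sequences over others. On the scale of counts, bta-miR-660 was 1.72-fold above bta-miR-362-5p (geometric mean) and higher in 6 of 6 libraries (exact p = 0.0312, adjusted p = 0.0521). In turn bta-miR-362-5p was 2.41-fold above bta-miR-532, again in 6 of 6 libraries (exact p = 0.0312, adjusted p = 0.0521). The levels of bta-miR-532 and bta-miR-502a did not differ beyond their spread, since bta-miR-532 was higher in 3 of 6 libraries with a ratio of 1.02 (exact p = 0.719, adjusted p = 0.719). Below them, bta-miR-500 was lower than bta-miR-502a in 6 of 6 libraries, by 5.38 to 24.8 times. This pair stays in the adjustment, but the level of bta-miR-500 entered its selection, so the p of the pair is not given. The last pair, bta-miR-500 and bta-miR-362-3p, counts in the adjustment, but its order was set in 5 of 6 libraries by the absence of any count of bta-miR-362-3p, so its p is not given. An alternative without that last pair in the adjustment was added after the data were seen. The adjusted p was then 0.0417 for bta-miR-660 above bta-miR-362-5p and for bta-miR-362-5p above bta-miR-532 (exact sign-flip permutation test). The last pair thus decides on which side of 0.05 these adjusted p-values lie.

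The strands of the MIR362 hairpin were found in very unequal amounts. The 5p strand had 1744, 2054 and 1871 counts across control cows 1 to 3 and 1374, 1823 and 1672 across tested cows 1 to 3. The 3p strand, bta-miR-362-3p, had 49 counts in control cow 1 and 0 in each of the other 5 libraries. In control cow 1 the ratio of 5p to 3p was 35.6, with a 95% exact binomial (Clopper-Pearson) interval of 26.8 to 48.3. In the other libraries a count of 0 allows up to 3 counts per library, which puts the ratio at no less than 458 in tested cow 1 and no less than 685 in control cow 2, with the remaining 3 libraries between. Control cow 1 thus lay apart from the other 5 cows in this ratio by more than counting error.

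With 0.5 added to both counts the mean log2 ratio of 5p to 3p was 10.66 ± 2.71 (SD, n = 6), and the 5p strand had more counts in 6 of 6 libraries. In 5 of them the ratio is set by the 0.5 that stands for the 3p strand, so no p is given. In the control group the mean was 9.67 ± 3.93 (SD, n = 3) and in the tested group 11.65 ± 0.209 (SD, n = 3). The tested mean was 1.98 higher, and without control cow 1 the difference was -0.28. The size depends on the count added where the 3p strand has none. In pooled counts the ratio was 115.7 in the control group and at least 1623 in the tested group, against 3 counts over the group. The level of bta-miR-362-3p was 31.9 CPM in control cow 1 (95% exact interval 23.6 to 42.1 CPM), and 3 counts correspond to between 1.44 and 2.45 CPM in the libraries without any. Pooled over cows, it was at least 15.3-fold lower in the tested group than in the control group, a value that rests on control cow 1 alone. Such a pattern was not limited to this miRNA. Of the 359 known miRNAs, 84 had counts in 1 library only, and 5 of these had at least 49 counts, of which bta-miR-362-3p was the one in control cow 1, while 1 was in tested cow 1 and 3 were in tested cow 3. These intervals cover counting error only, because reads copied by PCR without molecular identifiers are not independent molecules.

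Summed over the 6 members, the cluster took up 0.353%, 0.373% and 0.324% of all counts on known miRNAs across control cows 1 to 3 and 0.369%, 0.410% and 0.323% across tested cows 1 to 3. The sums averaged 3502 CPM for the control cows (SD 246.3, n = 3) and 3673 CPM for the tested cows (SD 431.6, n = 3), and the groups overlapped. The tested mean was 4.89% above the control mean. With RPM of clean reads, the reads left after trimming, the difference was -20.6% of the control mean. Counts on known miRNAs came to 10.8% to 18.01% of the clean reads in the control libraries and 8.50% to 15.6% in the tested libraries. On the clean-read scale the log2 ratio of tested to control had a median of -0.37 over the 150 known miRNAs with a mean count of at least 50, against 0.09 on the CPM scale.

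The comparison of the diets within the cluster turned on bta-miR-500, by which the cluster was chosen. Its level was 16.3, 33.9 and 16.6 CPM across control cows 1 to 3 and 70.1, 43.6 and 75.2 CPM across tested cows 1 to 3. The highest control cow, cow 2, had a 95% exact interval of 26.3 to 42.9 CPM that overlapped the 34.7 to 54.2 CPM of the lowest tested cow, cow 2. The group means were 22.2 ± 10.06 CPM (SD, n = 3) and 63.0 ± 16.9 CPM (SD, n = 3), a ratio of 2.83. The separation of the groups did not depend on the total used for scaling. On the clean-read scale bta-miR-500 had 1.75, 5.32 and 2.99 RPM across control cows 1 to 3 and 5.96, 6.80 and 6.49 RPM across tested cows 1 to 3, a ratio of 1.91.

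Against its own cluster, which needs no scaling, bta-miR-500 made up 0.460%, 0.907% and 0.511% of the members' summed counts across control cows 1 to 3 and 1.90%, 1.06% and 2.32% across tested cows 1 to 3. This gave 0.626% ± 0.245 (SD, n = 3) for the control group against 1.76% ± 0.641 (SD, n = 3) for the tested group. Set against bta-miR-660, from the gene next to it, its counts came to 1.03%, 1.68% and 1.10% across control cows 1 to 3 and 4.39%, 2.04% and 5.07% across tested cows 1 to 3. In these ratios, too, the groups were apart. Set against bta-miR-502a, with which it shares the complementary run, they came to 4.04%, 10.09% and 4.53% across control cows 1 to 3 and 17.1%, 8.32% and 18.6% across tested cows 1 to 3, so that by this ratio tested cow 2 lay below control cow 2. The same overlap was found against bta-miR-532, with 10.5% in control cow 2 and 10.3% in tested cow 2.

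**Figure D2:**
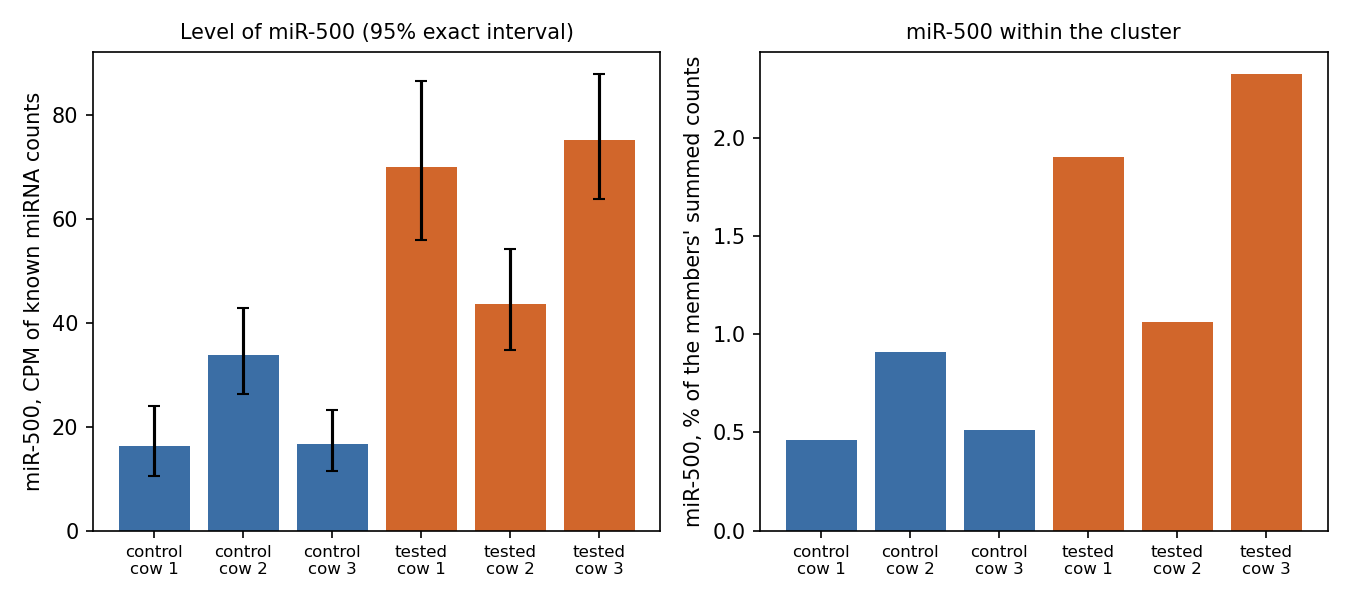
Level of bta-miR-500 in each library in CPM of known miRNA counts (left, bars with 95% exact binomial intervals for counting error) and as a percentage of the summed counts of the 6 members (right). Blue bars are control cows and orange bars tested cows. The tested cows lie at 43.6 to 75.2 CPM and 1.06% to 2.32%, above the control cows at 16.3 to 33.9 CPM and 0.460% to 0.907%.

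In edgeR's quasi-likelihood fit across 623 miRNAs, scaled by TMM, the log2 fold change of tested over control was 1.43 (standard error 0.974) for bta-miR-500. For bta-miR-532 it was 0.25 (standard error 0.380) and for bta-miR-502a 0.23 (standard error 0.388). The abundant members lay close to 0, bta-miR-660 at -0.01 (standard error 0.284) and bta-miR-362-5p at -0.15 (standard error 0.302). The fitted value of bta-miR-362-3p depends on the count added for libraries at 0 and is not given. The median over the 6 members, with bta-miR-362-3p set at its bound, was 0.11, and over all 623 miRNAs it was 0.07. The median was 0.23 over the 5 members without bta-miR-362-3p and 0.11 over the 4 without bta-miR-500 as well.

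The threshold used here asks for a p without adjustment under 0.05 together with a change of more than 1 on the log2 scale in either direction. It was passed by 0 of the 6 members with edgeR, where 3.21% of all miRNAs in the fit passed. The p alone, without the limit on fold change, was likewise reached by 0 members, against 4.65% of all. With the same filter, 0 members passed with DESeq2, against 4.26% of all, and 0 with limma, against 2.41% of all. In DESeq2 without a filter on low counts, 1 member passed, bta-miR-500, against 4.18% of all. Because bta-miR-500 was selected on this contrast, nothing is read from these counts.

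All tested cows lay above all control cows in CPM for 3 of the 6 members, bta-miR-500, bta-miR-532 and bta-miR-502a, against 8.83% of the 623 miRNAs. The reverse held for 0 members, against 2.41%. For bta-miR-532 and bta-miR-502a the separation depended on the scale. After TMM scaling, the highest control cow had 452.5 CPM of bta-miR-532 and the lowest tested cow 429.8 CPM, and the corresponding values of bta-miR-502a were 400.8 and 370.2 CPM. In RPM of clean reads both also overlapped, and bta-miR-502a did so too when scaled to all miRNA counts. For bta-miR-500 the groups were apart on each of the scales used, known counts, TMM, all miRNA counts, clean reads and the members' sum.

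**Figure D3:**
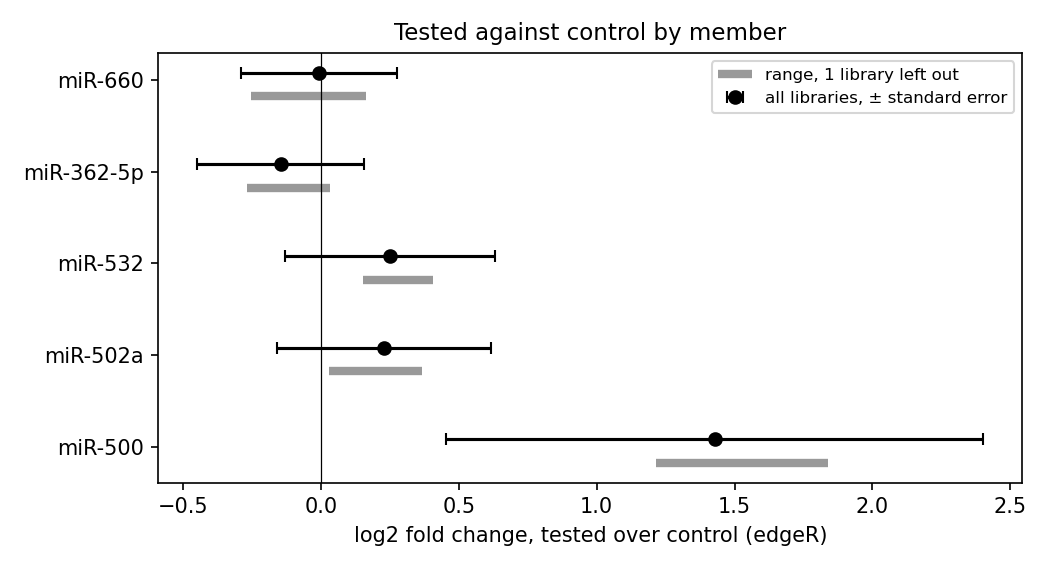
Log2 fold change of tested over control from edgeR (horizontal axis) for 5 members (vertical axis), with bta-miR-362-3p left out because its counts came from 1 library. Black points with bars are the fit to all 6 libraries ± standard error, and grey bars are the range when each library was left out in turn. bta-miR-500 lies at 1.43 with a range of 1.22 to 1.84, and the other members lie between -0.15 and 0.25.

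Markers of blood and tissue cells were summed per library and set beside this result. The platelet and vessel list, with 7 of 7 miRNAs counted in every library, was higher in all tested cows than in all control cows, as was bta-miR-500, with 277.8 to 678.5 CPM across control cows 1 to 3 and 719.9 to 844.4 CPM across tested cows 1 to 3. Of this list, bta-miR-199a-3p had 11.1, 22.4 and 6.03 CPM across control cows 1 to 3 and 182.6, 19.2 and 58.4 CPM across tested cows 1 to 3, with tested cow 2 below control cow 2. Without it, an alternative added after the data were seen, the list had 271.8 to 667.4 CPM in the control libraries and 661.8 to 781.5 CPM in the tested libraries, so that tested cow 1 lay just below control cow 1 and the other tested cows lay above all control cows. Both bta-miR-199a-3p and bta-miR-126-5p on this list were also picked by the study from these same libraries. The part of these markers in the level of bta-miR-500 was not tested. The groups overlapped for the red blood cell list (3 of 3 listed), with 13468 to 28434 CPM across control cows 1 to 3 and 8621 to 59608 CPM across tested cows 1 to 3, the highest value being that of tested cow 1. They also overlapped for white blood cells (4 of 5 listed, 196.4 to 385.8 and 123.5 to 439.3 CPM), liver (4 of 4 listed, 1899 to 2580 and 1703 to 2969 CPM), epithelium (7 of 8 listed, 77918 to 93340 and 90386 to 97481 CPM) and muscle (4 of 5 listed, 132.4 to 158.3 and 151.1 to 177.7 CPM). All listed markers had counts in every library, apart from 1 of the 4 for muscle.

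The spread over all cows differed between members. Over the 6 libraries the coefficient of variation of CPM was 12.4% for bta-miR-362-5p, 14.8% for bta-miR-532, 15.7% for bta-miR-502a and 16.4% for bta-miR-660, but 60.0% for bta-miR-500. Among the 150 known miRNAs with a mean count of at least 50, the median was 31.1%, and the quartiles were 16.1% and 56.4%. Of these 150, 25 had a smaller coefficient than bta-miR-362-5p and 122 a smaller one than bta-miR-500. The mean count of bta-miR-500 was 75.2 per library, against 725.8 or more for the 4 abundant members, so its counting error was larger. The spread over all cows also holds the difference between the diets on which bta-miR-500 was selected. Within the control group its coefficient was 45.3% and within the tested group 26.9%, while those of the 4 abundant members ran from 7.17% to 20.0% within a group.

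Whether the members varied together between cows was examined as the correlation of log2(CPM + 5) over the 6 libraries. Over the 15 pairs of members the median Pearson r was -0.01, and 7 of the 15 were positive. Over the 10 pairs of the 5 members with a mean count of at least 50, the median was 0.12, and 6 were positive. Without bta-miR-500, whose selected difference between the diets enters, it was 0.06, with 3 of 6 pairs positive. With the group means removed, the median of the 10 pairs was -0.10, with 4 positive. Over all 11175 pairs of the 150 known miRNAs with such counts, the median was 0.01, and 0.03 with the group means removed. The levels of a library are shares of 1 total and are not independent of each other.

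The 10 pairs without bta-miR-500 were put to a two-sided exact permutation of the libraries. In 4 of them the partner was bta-miR-362-3p, with counts in control cow 1 only, and there p cannot go below 0.167, so these 4 are not read as tests. Over all 10 pairs every adjusted p was 1. Adjusted over the 6 pairs of abundant members alone, an alternative added after the data were seen, the smallest was 0.877 by Pearson and 0.617 by Spearman (exact permutation). The pair with the highest rank correlation was bta-miR-532 and bta-miR-502a (r = 0.49, exact permutation p = 0.315, and rho = 0.77, exact permutation p = 0.103). Without the 2 libraries farthest from the median of bta-miR-532, r was 0.12, and with the group means removed it was -0.14. The most abundant members, bta-miR-660 and bta-miR-362-5p, gave r = 0.18 (exact permutation p = 0.756) and rho = 0.43 (exact permutation p = 0.419), and r = 0.95 in the 4 libraries left without the 2 farthest in bta-miR-660. For bta-miR-660 and bta-miR-532 r was -0.47 (exact permutation p = 0.336) and rho -0.20 (exact permutation p = 0.714), with r = -0.04 without the 2 farthest libraries and -0.87 with the group means removed. The strands bta-miR-362-5p and bta-miR-362-3p gave r = 0.51 and rho = 0.65, which rest on control cow 1, the library with counts of the 3p strand. With 6 libraries only strong relations could have been seen.

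For bta-miR-500 the correlations are a description, since its difference between the groups enters them. Its r was 0.61 with bta-miR-532, 0.30 with bta-miR-502a, 0.07 with bta-miR-660 and -0.35 with bta-miR-362-5p. With the group means removed these became -0.33, -0.88, 0.01 and -0.14. The -0.88 with bta-miR-502a went with cow 2 of each group. In CPM, tested cow 2 had the least bta-miR-500 and the most bta-miR-502a of its group. Control cow 2 had the most bta-miR-500 and the least bta-miR-502a of its group. The other cows of a group differed little in bta-miR-500. Without the 2 libraries farthest from the median of bta-miR-502a, r as measured was 0.65. The pattern also depended on the scale. In RPM of clean reads tested cow 2 had the most of both (6.80 and 81.7 RPM), and control cow 2 had more bta-miR-502a than control cow 1 (52.7 against 43.4 RPM).

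**Figure D4:**
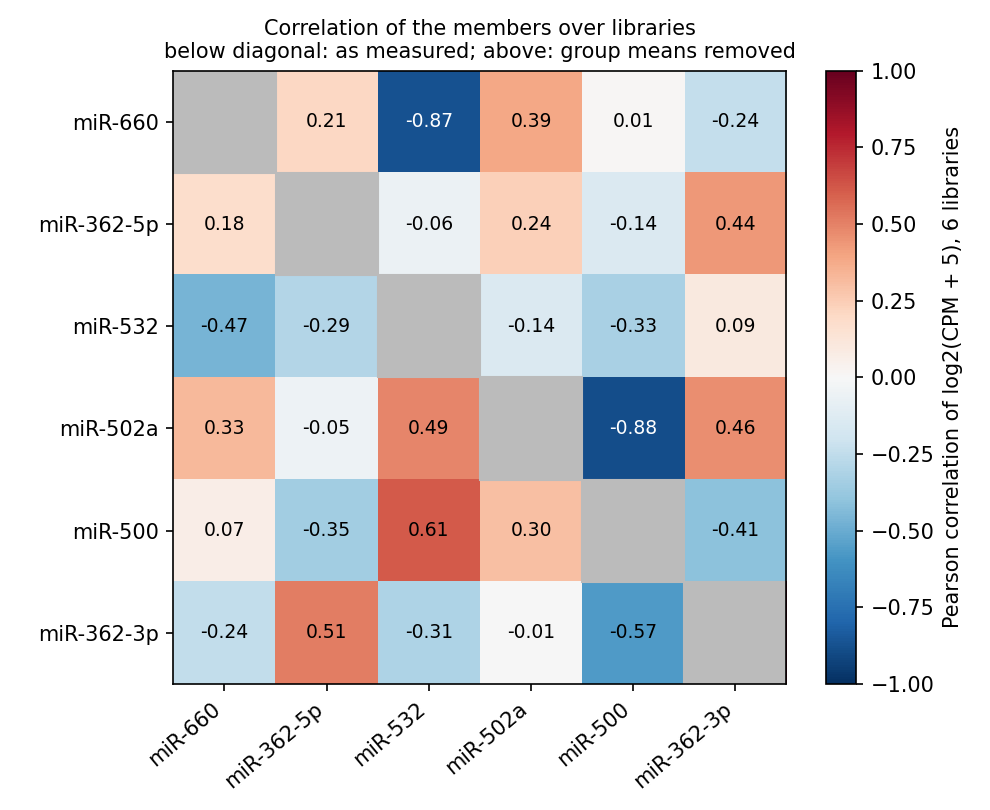
Pearson correlation of log2(CPM + 5) between the 6 members over the 6 libraries, as measured below the diagonal and with the mean of each group removed above it. Red is positive and blue negative, and the value is printed in each cell. Values below the diagonal run from -0.57 to 0.61, and the pair bta-miR-502a and bta-miR-500 changes from 0.30 to -0.88 when group means are removed.

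Outside the cluster, 145 known miRNAs with a mean count of at least 50 were compared with the pattern of the members over the 6 libraries. The most like bta-miR-500 were bta-miR-141 (r = 0.93), a miRNA of the miR-200 family known from epithelium and on that list, bta-miR-199a-3p (r = 0.88), known from vessel wall and connective tissue cells and itself on the platelet and vessel list, and bta-miR-320b (r = 0.87). The level of bta-miR-141 was 11921, 14346 and 11383 CPM across control cows 1 to 3 and 15761, 16926 and 17836 CPM across tested cows 1 to 3, with all tested cows above all control cows, although the summed epithelium list, of which it is a member, overlapped. The counts of bta-miR-199a-3p were 17, 45 and 12 across control cows 1 to 3 and 224, 36 and 122 across tested cows 1 to 3. Those of bta-miR-320b were 1, 90 and 28 across control cows 1 to 3 and 85, 59 and 128 across tested cows 1 to 3. The summed level of the 6 members was most like bta-miR-181a (r = 0.92), bta-miR-106b (r = 0.80) and bta-miR-23b-3p (r = 0.78). These are the highest of 145 values from 6 libraries and are given as a description. Group means were not removed, so the difference between the diets on which bta-miR-500 was selected enters its likeness to other miRNAs. The study also picked bta-miR-199a-3p from these same libraries.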

How the data were processed

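Small RNAs of serum EVs were sequenced from 6 cows, 3 in each group, as 1 library per cow. The authors trimmed the reads, aligned these with the cattle genome (ARS-UCD1.2), set other RNA classes aside, and took known miRNAs from miRBase and further miRNAs from miRDeep2. The submitters' processing notes name cutadapt 1.14 and Bowtie, and the counting tool is not given in the sources used here. The authors deposited counts per miRNA as whole numbers without normalization. The second table, named TPM, holds deposited RPM values, each equal to the count divided by the clean reads of the library (11048676 to 24187264). Its remaining columns, and the list of miRNAs the authors called, hold their own comparison and were not used. All miRNA counts summed to 1277693 to 2176002 per library, and the rarest members are limited by counting error.

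Groups followed the sample titles. The comparison of the diets used edgeR 4.0.16 in R 4.3.3 (TMM, glmQLFit and glmQLFTest with default settings) for 623 miRNAs with at least 10 counts in all, and all 6 members with a row passed this filter, bta-miR-362-3p through control cow 1 alone. The standard errors given were derived from the test, as the absolute log2 fold change divided by the square root of its F statistic. Levels, strand ratios, the order of levels and correlations were computed with SciPy 1.17.1, NumPy 2.4.6 and pandas 2.3.3 under Python 3.11.15, and plots with Matplotlib 3.10.9. Alternatives were DESeq2 1.42.0, limma 3.58.1 on log2(CPM + 1), other scalings and filters, robust estimation, a prior count of 1, the replicate number as a block, other added counts, pooled counts and each library left out. DESeq2 without a filter and the share of bta-miR-500 in the members' sum were added after the data were seen. Members and lists were chosen with earlier results of these data known. The miRNAs named are the members, any with a gene within 10 kb, a near-identical sequence or a shared seed, the 3 most like bta-miR-500, the 3 most like the sum, and 6 marker lists as sums.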

Additional observations from a re-analysis of the deposited data

Results flagged for a closer look

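The 6 libraries were taken as 1 set for 8 measures, the level of each member, their sum and the strand ratio of miR-362, and a library was singled out when its gap to the nearest other as a part of the whole range exceeded Dixon's 95% critical value. This held for 2 measures, both because of control cow 1. For the level of bta-miR-362-3p the gap was the whole range (1), as the other 5 libraries had no count, and the same would hold for each of the 84 known miRNAs with counts in 1 library only. For the log2 ratio of bta-miR-362-5p to bta-miR-362-3p the gap was 0.916 of the range, with 5.14 in control cow 1 and 11.42 to 12.00 in the other libraries, where the 0.5 added stands for the 3p strand. Chance passes the critical value in about 1 of 20 sets of ordinary measurements, a rate that does not apply to measures made up mostly of counts of 0. The measures share the same 49 counts, and their source was not tested.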

How the results depend on the processing

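The count of members past the threshold stayed at 0 under every alternative except DESeq2 without a filter on low counts, where it was 1. The log2 fold change of bta-miR-500 was positive in all 19 fits, from 1.22 to 1.84 with 1 library left out and from 1.33 to 1.50 otherwise, and those of bta-miR-532 and bta-miR-502a were positive in all 19, bta-miR-502a at 0.03 without tested cow 2 and 0.37 without tested cow 3, and bta-miR-532 at 0.15 without control cow 2 and 0.41 without control cow 3. That of bta-miR-660 was positive in 7 fits and negative in 12, and that of bta-miR-362-5p was negative in 18, with 0.03 without tested cow 3. Replicate numbers are shared by both groups, and the sample titles do not say what they stand for. The deviations of same-numbered cows from their group means had correlations of 0.16, 0.03 and 0.01 over 312 known miRNAs. For cows with different numbers the correlations ran from -0.15 to 0.14. With 3 cows per group these values cannot show whether same-numbered cows share anything besides the number. With the replicate number as a block 0 members passed. The summed level changed by -20.6% of the control mean on the clean-read scale, and by -1.17% (without tested cow 2) to 11.1% (without tested cow 3) with 1 library left out. The log2 strand ratio of miR-362 was 7.73 in pooled counts, 7.88 with 5 added to both strands and 10.39 to 11.77 with 1 library left out. Its difference between groups was 1.66 with 1 added to both strands and 0.92 with 5 added. In pooled counts it was 6.41, a value set by the 0.5 that stands for the missing 3p counts of the tested group. It was -0.28 without control cow 1 against at most 3.15 without another library. The number of neighbours with the same order in every library was 3 to 4, being 4 without control cow 1. The median correlation of the members ran from -0.13 to 0.14 with 1 library left out. Low counts limit bta-miR-500 and bta-miR-362-3p most.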
